A study of Mus musculus with 26 samples.

Results

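A set of 10 genes of the intestinal epithelium were read out in RNA from T cells that had been sorted from mouse Peyer's patches. They were Epcam, Cdh1, Cldn7, Vil1, Krt8, Krt18, Krt19, Krt20, Muc3 and Muc13, and each was found by its exact name among the 25814 genes listed in all 26 libraries. All 10 were present. The set was listed by gene name, and it was chosen with earlier results of these data known. Shares over all genes that are set beside it below are therefore a description.

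The libraries fell into 4 groups, all from C57Bl/6 mice. CD4+ T cells were from mice on an elemental diet (n = 6), in which amino acids are supplied free instead of as protein, or from mice on a conventional diet (n = 6). A further pair of T cell sorts, CD44+ (n = 7) and CD44- (n = 7), was from mice on the conventional diet. CD44 binds hyaluronan and is raised on the surface of T cells once they have responded to antigen. The study asks how antigen from the diet bears on gene expression in these cells. Input RNA was 22 ng with poly(A) selection for the CD4+ libraries, and 1 ng with a low-input protocol for the CD44+ and CD44- libraries. The sorted population and the library protocol differ together between the pairs and cannot be told apart, so each pair was compared only within itself. The labels do not say whether the libraries of a group were separate animals, and give no sorting gate beyond CD4 or CD44. A p-value here therefore measures the spread among these samples, which may be technical in part.

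All 10 genes are known as genes of epithelial cells, the sheet that lines the gut and covers the dome of each Peyer's patch. Epithelial cells hold to each other through cadherins, which bind cell to cell, and through claudins, which form the tight junctions that seal the gaps. Keratins build the intermediate filaments inside them, always as pairs of an acidic type I chain and a basic type II chain. The surface that faces the gut lumen carries microvilli, bundled by villin, and a coat of membrane mucins. None of the 10 genes is in common use as a marker of T cells.

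Reads of the T cell genes named by the labels were present in the sorted libraries, but their levels were not even between groups. In the CD4+ libraries, Cd3e, a signalling chain of the T cell receptor complex, ran between 150 and 214 CPM on the elemental diet and between 191 and 213 CPM on the conventional diet. CPM is the number of exon reads over the scaled library size in units of 1000000 reads. Cd4 ran between 182 and 284 CPM on the elemental diet and between 224 and 449 CPM on the conventional diet. Cd4 passed as lower on the elemental diet (log2 fold change -0.56, adjusted p = 0.0250, edgeR), while Cd3e did not pass (-0.22, adjusted p = 0.0791). Cd44 ran between 89.2 and 362 CPM in CD44+ libraries and between 47.5 and 139 CPM in CD44- libraries, so the ranges overlapped. Between these groups Cd44 did not pass (log2 fold change 0.95, adjusted p = 0.303, edgeR). In the CD4+ pair Cd44 passed as lower on the elemental diet (-0.60, adjusted p = 0.00339). Libraries held between 16401589 and 25415205 exon reads in the CD4+ pair and between 7180390 and 13378353 in the CD44 pair. Introns took between 3.33% and 4.61% of gene reads in the CD4+ pair and between 9.39% and 29% in the CD44 pair.

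The promoters of these genes were searched for short motifs. RefSeq windows on GRCm38.p6 were matched by symbol for 8 of the 10 genes, Cdh1 and Krt19 being named only. Windows of 3 genes are printed because Vil1 and Muc3 hold the same uncommon 8-letter string and Krt20 holds a TATA box. Each line gives the 250 bases before the RefSeq start, 5′ to 3′ on the strand of the gene, with matched motifs in capitals. The windows lie at chr1:74409134-74409383 on the + strand for Vil1, at chr5:137166047-137166296 on the - strand for Muc3 and at chr11:99438154-99438403 on the - strand for Krt20.
Vil1: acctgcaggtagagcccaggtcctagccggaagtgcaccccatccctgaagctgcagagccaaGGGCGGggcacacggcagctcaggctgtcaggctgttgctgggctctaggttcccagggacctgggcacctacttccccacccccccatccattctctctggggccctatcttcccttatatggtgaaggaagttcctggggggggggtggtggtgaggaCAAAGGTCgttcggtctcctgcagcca
Muc3: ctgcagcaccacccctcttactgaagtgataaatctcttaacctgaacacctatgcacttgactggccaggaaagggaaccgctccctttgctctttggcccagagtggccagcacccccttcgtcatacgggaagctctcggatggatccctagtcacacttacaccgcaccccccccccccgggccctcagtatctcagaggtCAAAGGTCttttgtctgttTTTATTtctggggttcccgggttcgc
Krt20: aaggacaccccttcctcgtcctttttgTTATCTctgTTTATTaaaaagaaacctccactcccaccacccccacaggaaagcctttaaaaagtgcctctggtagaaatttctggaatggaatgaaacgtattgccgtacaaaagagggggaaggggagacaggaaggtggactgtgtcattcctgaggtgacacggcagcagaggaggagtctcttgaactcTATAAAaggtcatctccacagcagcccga
The capitals mark CAAAGGTC, a repeat type bound by nuclear receptors such as HNF4, in Vil1 and Muc3. They mark GGGCGG, the GC box, in Vil1, TTTATT, a caudal type string, in Muc3 and Krt20, and TATAAA in Krt20. In Krt20, TTATCT is the GATA type string AGATAA read on the other strand.

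CAAAGGTC ended 20 bases before the start in Vil1 and 38 bases before it in Muc3. It was found on either strand in 1.01% of the 32841 mouse promoter windows of this length and in 2 of the 8 matched genes. TATAAA was found in 12.4% of all windows and in Krt20 alone of the 8, ending 24 bases before the start. GGGCGG was found in 32.7% of all windows and in Epcam, Vil1 and Cldn7. TTTATT was found in 18.1% of all windows and in Krt20 and Muc3, and AGATAA in 9.99% of all windows and in Krt8 and Krt20. AACCNGTT, a Grainyhead type string, was found in 1.79% of all windows and in 0 of the 8. The letters were chosen after the windows had been seen, and the matches describe the sequence only. The RefSeq start of Muc3 lies 16724 bases upstream of the start in the deposited gene model, so the Muc3 window belongs to the longer model.

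The diet comparison asks whether reads of these genes differed between CD4+ T cell libraries of mice on the elemental and the conventional diet. All 10 genes passed the filter on low counts, and all 10 had a log2 fold change above 0, meaning higher on the elemental diet, which held for 48.7% of all genes tested. In 9 of the 10 it was at least 1, which held for 8.59% of all genes tested. Of these 10, 5 genes, Muc3, Epcam, Vil1, Muc13 and Cdh1, passed edgeR's quasi-likelihood test with Benjamini-Hochberg adjustment over all genes at 0.05. The other 5, Cldn7, Krt8, Krt18, Krt19 and Krt20, did not. Over all 11938 genes tested, 17.4% passed in either direction and 9.68% passed as higher, while 0 of the 10 passed as lower. The median log2 fold change was 1.52 over the 10 genes (range 0.97 to 3.33) and -0.01 over all genes tested. In such bulk libraries, a higher level on the elemental diet from more cells that express a gene and one from more RNA per cell cannot be told apart.

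Epcam encodes an adhesion protein of the epithelial cell surface that binds claudins (chr17:87635979-87651106, GRCm38). Its level ran from 28.4 through a median of 48.8 to 68.2 CPM on the elemental diet. On the conventional diet it ran from 3.68 through 13.5 to 24.7 CPM. Every elemental library lay above every conventional library. The log2 fold change was 1.79 ± 0.42 (SE; adjusted p = 0.0142, edgeR), and the gene stayed called in 12 of 12 fits that each left out 1 library.

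Cdh1 encodes E-cadherin, the protein of the adherens junction (chr8:106603351-106670246). Its level ran from 6.48 through a median of 9.20 to 11.2 CPM on the elemental diet and from 2.02 through 2.83 to 7.14 CPM on the conventional diet. The groups overlapped by a single elemental library, and 5 of 6 elemental libraries lay above the highest conventional one. Its log2 fold change was 1.32 ± 0.30 (adjusted p = 0.00910, edgeR), called in 12 of 12 such fits.

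Cldn7 encodes a claudin that lies along the sides of the cell and binds Epcam (chr11:69964779-69967885). On the elemental diet it ran from 42.6 through a median of 81.5 to 107 CPM, and on the conventional diet from 1.39 through 16.4 to 51.1 CPM. Conventional replicate 6 held the 51.1 CPM and reached into the elemental range, where 4 of 6 libraries lay above it. The log2 fold change of 1.96 ± 0.62 was the second largest of the 10 and missed the threshold (adjusted p = 0.0510, edgeR). Leaving out conventional replicate 6 gave 0.0118 and leaving out conventional replicate 1 gave 0.0309, while the other 10 such fits gave between 0.0512 and 0.107.

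Vil1 encodes villin, which bundles actin in the microvillus (chr1:74409376-74435559). Its level ran from 15.3 through a median of 19.3 to 24.3 CPM on the elemental diet and from 1.94 through 5.04 to 12.5 CPM on the conventional diet. The groups did not overlap. Its log2 fold change was 1.51 ± 0.35 (adjusted p = 0.0112, edgeR), called in 12 of 12 fits that left out a library.

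Muc3 encodes a membrane mucin of the enterocyte surface (chr5:137134922-137149322), and it had the largest fold change of the 10. On the elemental diet it ran from 7.50 through a median of 14.4 to 21.1 CPM, on 140 to 375 reads per library. On the conventional diet, replicates 1 to 6 held 0, 1, 17, 44, 41 and 68 reads, and the level ran from 0 through 1.34 to 4.13 CPM. Every elemental library lay above every conventional library, and 3 of 6 conventional libraries held fewer than 20 reads. The log2 fold change was 3.33 ± 0.76 (adjusted p = 0.0131, edgeR), between 3.06 and 3.97 with each library left out, and called in 12 of 12 of those fits.

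Muc13 encodes a further membrane mucin of the gut surface (chr16:33794037-33819934). Its level was the most even of the 10 on the elemental diet, where it ran from 30.9 through a median of 35.1 to 39.1 CPM. It ran from 1.78 through 9.48 to 25.9 CPM on the conventional diet. The groups did not overlap. The log2 fold change was 1.52 ± 0.46 and the adjusted p was 0.0421 (edgeR). The call held in 3 of 12 fits, those without conventional replicate 1, 5 or 6, and the other 9 fits, which left out conventional replicate 2, 3 or 4 or any of the 6 elemental libraries, gave adjusted p between 0.0554 and 0.0925.

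The 4 keratins had higher means on the elemental diet, and their groups overlapped. Krt8, the type II chain of simple epithelia (chr15:101996698-102004482), ran from 43.8 through a median of 95.2 to 128 CPM on the elemental diet. It ran from 5.71 through 34.5 to 73.8 CPM on the conventional diet. Its log2 fold change was 1.32 ± 0.50 (adjusted p = 0.0926, edgeR). In all, 4 of 6 elemental libraries lay above the highest conventional library.

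Krt18 is the usual type I partner of Krt8 and is encoded beside it (chr15:102028180-102032027). It ran from 4.14 through a median of 10.5 to 14.7 CPM on the elemental diet and from 0.761 through 5.31 to 9.85 CPM on the conventional diet. The log2 fold change of 0.97 ± 0.51 was the smallest of the 10 (adjusted p = 0.196, edgeR), and 3 of 6 elemental libraries lay above every conventional one.

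Krt19, the smallest type I keratin (chr11:100140810-100148665), ran from 38.7 through a median of 104 to 160 CPM on the elemental diet. It ran from 2.16 through 28.1 to 65.4 CPM on the conventional diet. Elemental replicates 4 to 6 held 160, 146 and 148 CPM and replicates 1 to 3 held 63.0, 53.3 and 38.7 CPM, so the elemental group itself was split. The same held for Epcam, Krt8, Krt18, Cldn7, Muc3 and Muc13, 7 genes in all, and the 10 genes summed to between 518 and 574 CPM in replicates 4 to 6 and between 231 and 339 CPM in replicates 1 to 3. Its log2 fold change was 1.71 ± 0.63 (adjusted p = 0.0855, edgeR).

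Krt20, a type I keratin of differentiated gut epithelium (chr11:99428403-99438150), ran from 5.85 through a median of 9.77 to 13.8 CPM on the elemental diet. It ran from 1.52 through 3.72 to 11.9 CPM on the conventional diet. A single elemental library lay above conventional replicate 6, which held the 11.9 CPM. Its log2 fold change was 1.07 ± 0.42 (adjusted p = 0.0898, edgeR).

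Among the edgeR fits that left out a library, the calls of 3 keratins depended on conventional replicate 6. Without that library the adjusted p was 0.00274 for Krt20, 0.0342 for Krt8 and 0.0417 for Krt19 (edgeR), and 9 of the 10 genes were called. The choice of test mattered as well. With every library kept, DESeq2 gave adjusted p of 0.0406 for Krt20, 0.0430 for Krt8 and 0.0323 for Krt19. Calls over all genes were then 3865, against 2081 with every library, so more calls were made across the table as well. The other 11 fits that left out a library gave between 0.0744 and 0.168 for Krt20, between 0.0747 and 0.171 for Krt8 and between 0.0676 and 0.161 for Krt19. Krt18 was called in 0 of 12. A p above the threshold does not show that a gene was the same on both diets.

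**Figure D1:**
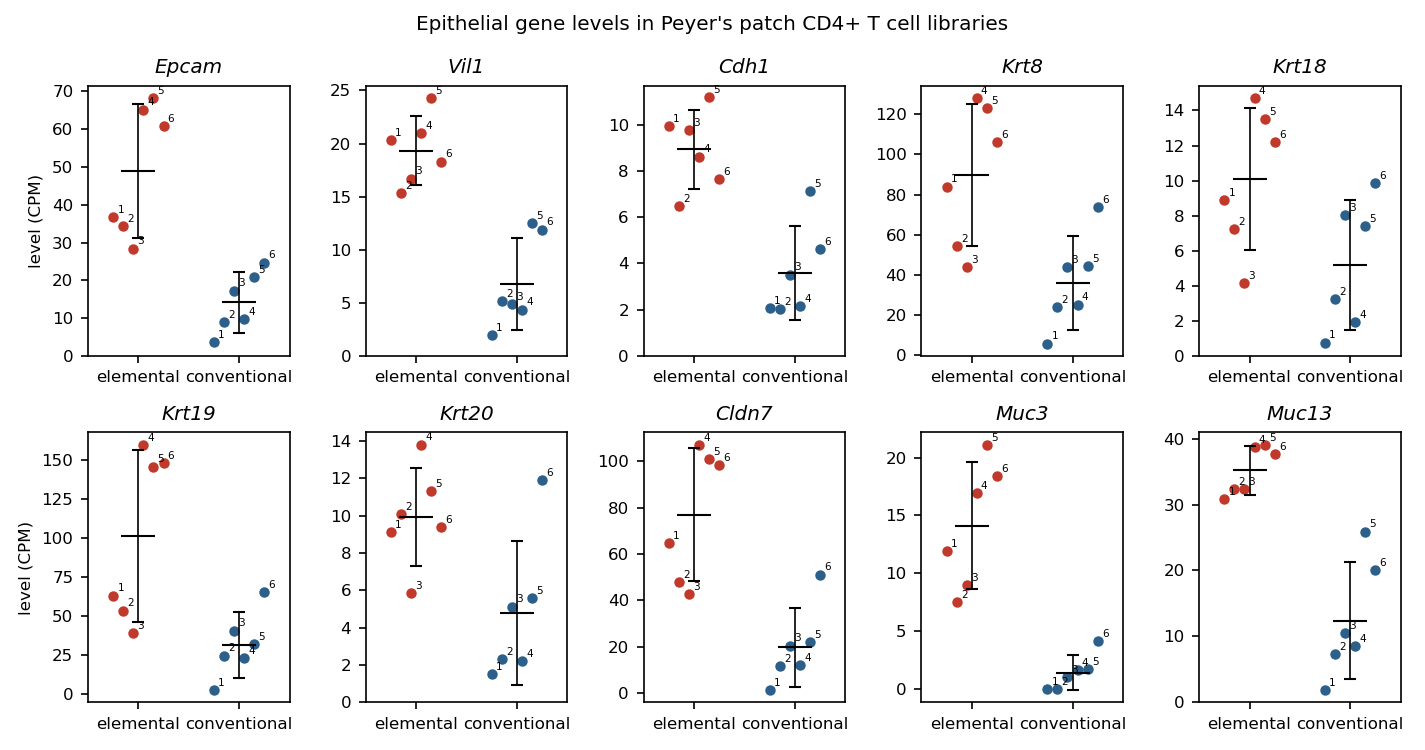
Level of each of the 10 genes in the 12 CD4+ libraries, as CPM, with the elemental diet left of the conventional diet, a numbered point per library (its replicate) and a bar at the mean with its SD. Each gene has its own linear axis. Epcam, Vil1, Muc3 and Muc13 show groups that do not overlap, and conventional replicate 1 lies lowest for 9 of the 10 genes.

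In 4 of the 10 genes, Epcam, Vil1, Muc3 and Muc13, every elemental library lay above every conventional library. Over all genes tested this held for 4.82%. The direction was the same for all 10 genes under each of the 20 alternative settings tried. With DESeq2 instead of edgeR 9 of the 10 were called, Krt18 being the exception, and calls over all genes were 2806 against 2081 with edgeR. With all 4 groups sharing 1 estimate of the spread, 0 of the 10 were called, while 2 genes of the whole table were.

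**Figure D2:**
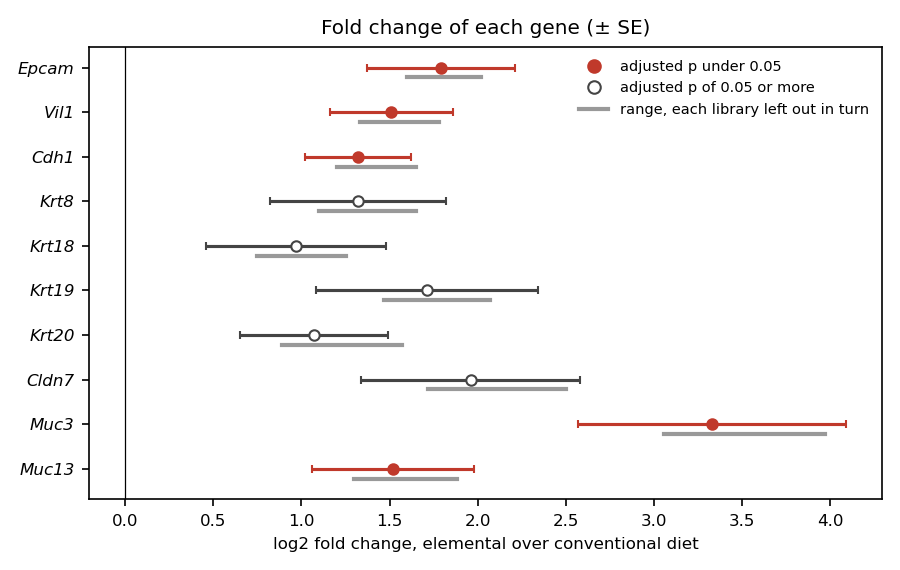
Log2 fold change of each gene, elemental over conventional diet, with the SE as a bar and, in grey, the range over 12 fits that each left out a library. Filled points mark an adjusted p under 0.05 (edgeR). Muc3 stands at 3.33 and the other 9 genes between 0.97 and 1.96.

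The levels moved together from library to library. The 10 genes summed to between 231 and 574 CPM on the elemental diet (median 428), against between 21.0 and 277 CPM on the conventional diet (median 123). Conventional replicate 1, with the lowest sum, was the lowest of its group for 9 genes, and replicate 2 was the lowest for Cdh1. Conventional replicate 6 was the highest for 7 genes, and replicate 5 for Vil1, Cdh1 and Muc13. On the elemental diet, replicates 4 and 5 were each the highest for 5 genes, and replicate 3 was the lowest for 6. With the mean of each diet taken off, all 45 pairs of the 10 genes had a Pearson r above 0 over the 12 libraries, with a median of 0.84 and a range of 0.47 to 0.98. All pairs rest on the same 12 libraries, with the depth of each and any content of other cells, which was not measured. The r is given as a description.

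The 5 genes outside the set whose profile over the same 12 libraries was most like its mean were Tm6sf2, Tm4sf5, Pnp2, Slc5a1 and Ms4a10, among 8989 genes ranked. Their r ran from 0.988 for Ms4a10 to 0.996 for Tm6sf2, again with the diet means taken off. Slc5a1, the sodium and glucose cotransporter of the enterocyte, averaged 269 ± 76.6 CPM on the elemental diet and 29.8 ± 25.4 CPM on the conventional diet (SD). Its log2 fold change was 3.18 and its adjusted p 0.00851 (edgeR). Tm6sf2 averaged 31.5 ± 9.58 CPM on the elemental diet and 7.59 ± 5.46 CPM on the conventional diet. All 5 had adjusted p between 0.00532 and 0.0348.

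Per length of exon, Krt19 had the highest mean in both groups, followed by Krt8 when all its exon reads were counted. On the elemental diet Krt19 averaged 64.5 ± 35.2, Krt8 45.9 ± 18.0, Cldn7 39.5 ± 14.7, Epcam 24.0 ± 8.67 and Muc13 11.6 ± 1.21 CPM per kb (SD). Muc3 at 7.62, Krt18 at 7.02, Vil1 at 6.09 and Krt20 at 5.16 CPM per kb followed, and Cdh1 came last at 2.02. On the elemental diet Krt8, Cldn7, Epcam, Muc13 and Krt20 each lay above the next gene in 6 of 6 libraries. Krt19 lay above Krt8 in 5, while Muc3, Krt18 and Vil1 each lay above the next gene in only 4. On the conventional diet the order of the first 5 means was the same, with Krt19 at 19.8 ± 13.4 and Krt8 at 18.4 ± 11.9 CPM per kb (SD). There Krt19 lay above Krt8 in only 4 of 6 libraries. Muc3 stood last there at 0.774 CPM per kb, behind Cdh1 at 0.810, and Cdh1 lay above it in 4 of 6 libraries. Levels per kb of Muc3 rest on its deposited exon length of 1853 bases, from a gene model that starts well inside the RefSeq one. The place of Krt8 rests on reads that also matched elsewhere. With unique reads alone it averaged 23.1 ± 9.05 CPM per kb on the elemental diet, below Cldn7 in 6 of 6 libraries and above Epcam in 2 of 6. On the conventional diet it then averaged 9.69 ± 6.13 CPM per kb, above Cldn7 and above Epcam in 5 of 6 libraries each. Both averages divide the unique reads by the full exon length of Krt8, 1958 bases. Of its transcript, 941 bases align to a copy described below and may yield few unique reads. The unique levels and ranks of Krt8 may therefore be too low.

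The mix of the 10 genes also differed at Muc3 and Krt8. As a share of the summed level per kb, Muc3 took between 3.01% and 4.33% in elemental libraries and between 0% and 1.90% in conventional libraries. Krt8 took at most 25.2% in elemental libraries and between 25.8% and 29.8% in conventional libraries. Neither range overlapped. Cldn7 took between 17.9% and 19.6% in elemental libraries and between 7.32% and 18.2% in conventional libraries, and the ranges overlapped by a small margin. Epcam took 11.4% ± 0.892 on the elemental diet and 11.4% ± 3.59 on the conventional diet (SD). The shares of the other 6 genes overlapped between diets. With unique Krt8 reads the range of Krt8 was 10.9% to 14.5% in elemental libraries and 15.1% to 18.0% in conventional libraries, still with no overlap. These unique shares use the full exon length of Krt8 too, so they may be too low on both diets. The share of Muc3 rests on its own deposited exon length, given above. Shares of 1 sum depend on each other, and they were not tested.

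**Figure D3:**
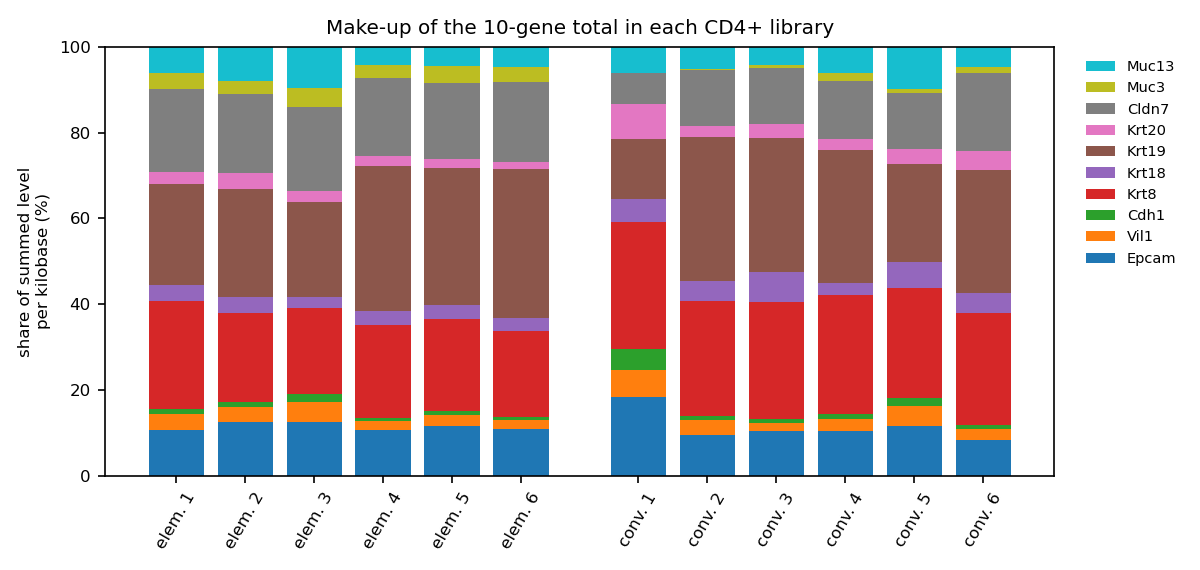
Stacked bars give the share of each gene in the summed level per kb of the 10 genes, in percent, for each of the 12 CD4+ libraries, elemental left of conventional. Muc3 takes between 3.01% and 4.33% in elemental libraries and at most 1.90% in conventional ones, and Krt8 takes less in every elemental library than in any conventional one.

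Type I keratins together outweighed their type II partner in all CD4+ libraries but 1. The summed level per kb of Krt18, Krt19 and Krt20 over that of Krt8 ran from 1.19 through a median of 1.66 to 1.98 on the elemental diet. It ran from 0.922 through 1.38 to 1.54 on the conventional diet, where replicate 1 held the 0.922. With uniquely matched Krt8 reads in place of all Krt8 reads, the ratio ran from 2.35 through 3.33 to 4.05 on the elemental diet. It ran from 1.94 through 2.53 to 2.95 on the conventional diet. The ratios with unique reads use the full exon length of Krt8, so they may be too high on both diets. The ratio overlapped between diets on both counts.

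Krt8 is the member whose reads are least certain in place. Unique reads made up between 48.8% and 51.7% of its exon reads in elemental libraries and between 47.4% and 60.4% in conventional libraries, and 100% for the other 9 genes in the CD4+ pair. The mouse annotation (GENCODE M21, GRCm38) holds a processed copy, Krt8-ps, at chr7:23357125-23358069 on the + strand, which has 0 entries in the deposited tables. The copy aligned to the Krt8 transcript over 941 bases at 98.6% identity, with 13 mismatches and 0 gaps. A stretch of 90 bases, from base 368 to base 457 of the Krt8 transcript, is printed with its 3 differing bases in capitals. It was chosen for holding 3 differences, so it is less alike than the alignment as a whole.
Krt8: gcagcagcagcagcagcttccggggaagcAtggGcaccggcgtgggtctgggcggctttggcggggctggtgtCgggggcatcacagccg
Krt8-ps: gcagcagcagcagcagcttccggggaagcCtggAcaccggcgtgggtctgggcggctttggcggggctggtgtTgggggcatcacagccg
Reads that cover none of the differing bases can be placed at either locus, so the Krt8 level above may include reads of a copy. With unique reads alone Krt8 was not called either.

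Other epithelial genes, from lists chosen with earlier results of these data known, were counted in the same diet fit. Of 32 other junction and adhesion genes, 27 were tested, 11 passed as higher and 0 as lower, with a median log2 fold change of 1.20. Cldn15, a claudin that passes cations, averaged 54.5 ± 19.6 CPM on the elemental diet and 9.25 ± 7.50 CPM on the conventional diet (log2 fold change 2.57 ± 0.58, adjusted p = 0.0139, edgeR). Cldn23 had 2.80 ± 0.68 (adjusted p = 0.0115). Ctnnb1, beta-catenin, which lymphocytes also use, averaged 177 ± 15.0 CPM on the elemental diet and 173 ± 16.7 CPM on the conventional diet (adjusted p = 0.808).

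All 21 genes of microvillus structure were tested, and 12 passed as higher and 0 as lower, with a median log2 fold change of 1.59. Myo7b, a myosin of the microvillus tip, had 2.02 ± 0.49 (adjusted p = 0.0120, edgeR), and Eps8l2, an actin capping protein, had 2.01 ± 0.54 (adjusted p = 0.0209). Of 17 epithelial transcription and splicing factors, 12 were tested and 5 passed as higher. Creb3l3 averaged 10.1 ± 3.01 CPM on the elemental diet and 2.45 ± 1.57 CPM on the conventional diet (log2 fold change 2.06 ± 0.39). Hnf4g, a nuclear receptor of the enterocyte, had a log2 fold change of 1.99 ± 0.40 (adjusted p = 0.00488).

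Other keratins and mucins were sparse. Of 16 other keratins 12 never reached 20 reads in a CD4+ library, and 4 were tested. Krt7, a type II keratin of simple epithelia, passed as higher with 3.20 ± 2.44 CPM on the elemental diet and 0.732 ± 0.648 CPM on the conventional diet (adjusted p = 0.0417, edgeR). Krt222 passed as lower with 0.971 ± 0.254 CPM on the elemental diet and 2.58 ± 1.25 CPM on the conventional diet (adjusted p = 0.0185). Among the other mucins 1 was tested, the gel-forming Muc2 of goblet cells, at 5.87 ± 3.03 CPM on the elemental diet and 3.19 ± 2.19 CPM on the conventional diet (adjusted p = 0.307).

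Markers of absorptive enterocytes moved with the 10 genes. Of 15 such markers 15 were tested, 9 passed as higher and 0 as lower, with a median log2 fold change of 2.13. They summed to between 1443 and 2428 CPM on the elemental diet and between 92.7 and 1201 CPM on the conventional diet, with conventional replicate 1 lowest and replicate 6 highest there too. Sis, sucrase-isomaltase, averaged 75.2 ± 14.7 CPM on the elemental diet and 8.36 ± 6.88 CPM on the conventional diet (log2 fold change 3.18 ± 0.52). The part of these markers in the result was not tested.

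Lists for other cell types were read in the same way. Of 7 myeloid markers tested 7 passed as higher, with sums between 651 and 999 CPM on the elemental diet and between 379 and 493 CPM on the conventional diet. Of 13 alpha-beta T cell core genes 4 passed as lower and 0 as higher, with sums between 4847 and 5467 CPM on the elemental diet and between 5028 and 5859 CPM on the conventional diet. Of 8 B cell markers 2 passed as lower and 0 as higher, with sums between 182 and 418 CPM on the elemental diet and between 324 and 615 CPM on the conventional diet. Of 8 intraepithelial T cell markers tested 2 passed as higher and 2 as lower, with sums between 148 and 515 CPM on the elemental diet and between 335 and 881 CPM on the conventional diet. Fcer1g, an Fc receptor chain that myeloid cells also express, passed as higher with 61.9 ± 21.4 CPM on the elemental diet and 21.9 ± 5.46 CPM on the conventional diet (adjusted p = 6.96e-04, edgeR). Cd8b1 passed as higher with a log2 fold change of 0.54 ± 0.17 (adjusted p = 0.0366). The granzymes Gzmb and Gzma passed as lower, with -2.06 ± 0.48 (adjusted p = 0.0160) and -1.84 ± 0.57 (adjusted p = 0.0497). The parts of these markers in the result were not tested.

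The comparison of CD44+ with CD44- libraries sets T cells sorted by CD44 against each other, on 1 diet. Whether the cells had met antigen is not given by the labels. Here 0 of the 10 genes passed the filter on low counts, so none was tested in the fit. Of 8343 genes tested, 64 or 0.767% were called, 25 higher and 39 lower, and 1114 had an unadjusted p under 0.05. In a fit with no filter 0 of the 10 were called, the lowest adjusted p being 0.0809 for Krt19 (edgeR). Groups at or near 0 give fitted fold changes that depend on the prior count, so counts are given instead.

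The 10 genes summed to between 2 and 191 reads per CD44+ library (median 36.0) and between 4 and 981 reads per CD44- library (median 146). Of 70 values, 40 were at 0 in CD44+ libraries and 34 in CD44- libraries. A further 18 of 70 in each group were of 1 to 3 reads. The rest were scattered, with 8 of 70 at 20 reads or more in CD44+ libraries and 14 of 70 in CD44- libraries. The ranges of the sums overlapped.

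High values were held by a few libraries and by different genes in each. CD44- replicate 1 had 5 of the 10 genes at 20 reads or more and CD44+ replicate 4 had 4, while the other 12 libraries had at most 3. Krt20 held 55 reads in CD44+ replicate 4 and 0 in the other 6 CD44+ libraries, and held 651, 362, 360 and 44 reads in CD44- replicates 1, 4, 5 and 8. Cldn7 held 82, 89 and 146 reads in CD44+ replicates 2, 4 and 5, and 0 in the other 4 CD44+ libraries and in all 7 CD44- libraries. Krt8 held 92 and 20 reads in CD44+ replicates 2 and 4, and 161 and 33 in CD44- replicates 4 and 1. CD44- replicate 5 held 360 Krt20 reads in a sum of 369 for all 10 genes, whereas CD44- replicate 1 also held 125 Cdh1, 110 Krt18 and 53 Krt19 reads.

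Krt19 had 1 read in all 7 CD44+ libraries together and 210 reads in the CD44- libraries, of which 53, 80 and 71 were in replicates 1, 2 and 8. Krt18 had 4 reads in CD44+ libraries in all, and 110 and 35 of its 148 reads in CD44- libraries were in replicates 1 and 2. Muc3 was at 0 in all CD44+ libraries, and 38 of its 39 reads in CD44- libraries were in replicate 6. Muc13 had 5 reads in CD44+ libraries and 0 in CD44- libraries. None of the 10 genes had groups that did not overlap, which held as higher for 0.396% of all genes tested.

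Epcam and Vil1 were low in both groups. Epcam held up to 24 reads in CD44+ libraries and up to 21 in CD44- libraries, with a median of 1.00 and 2.00 reads in these groups. Vil1 held up to 12 reads in CD44+ libraries and up to 6 in CD44- libraries. At these read numbers a difference between the groups was not detectable, which is not the absence of one.

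**Figure D4:**
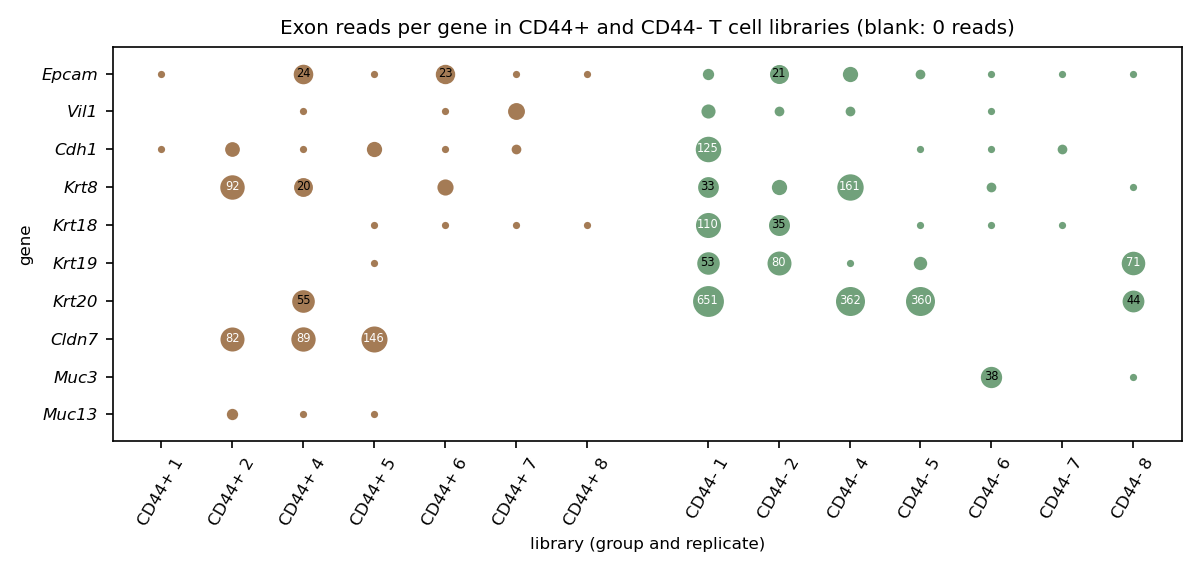
Exon reads of each gene in the 7 CD44+ and the 7 CD44- libraries, CD44+ on the left. Dot area grows with the log of the read number, blanks are 0 reads and values of 20 or more are printed. Most values are 0 to 3 reads, and the high ones are scattered, such as 651 Krt20 reads in CD44- replicate 1 and 146 Cldn7 reads in CD44+ replicate 5.

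Cdh1 and Vil1 gave mostly intron reads in the CD44 pair. Cdh1 held between 81 and 268 intron reads in each CD44+ library, 98.4% of its gene reads, and between 95 and 229 in each CD44- library, 90.8% of its gene reads. In the CD4+ pair introns took 24.0% of Cdh1 gene reads on the elemental diet and 27.7% on the conventional diet. For Vil1 introns took 93.4% of gene reads in CD44+ libraries and 86.9% in CD44- libraries. With introns included both genes passed the filter and neither was called. Cdh1 then had a log2 fold change of -0.09 (adjusted p = 0.972) and Vil1 of 1.39 (adjusted p = 0.367, edgeR).

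Enterocyte markers were present in the CD44 pair at between 133 and 617 CPM in CD44+ libraries and between 110 and 700 CPM in CD44- libraries, and 0 of the 7 tested were called. Alpi, the alkaline phosphatase of the brush border, was at 0 in all 14 libraries. Of the other lists, 0 genes were called in this comparison either.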

How the data were processed

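The authors deposited, per library, read counts for 25814 genes as whole numbers, in separate columns for exon, intron and whole-gene reads and for all or uniquely matched reads. Genome build GRCm38 is given per the submitters' processing notes, with aligner and counting tool not given in the sources used here. TPM and RPKM columns in the same tables were not used. Total exon reads were the measure. The deposited exon length was 0 for 3759 genes. No gene was left out of the tests by its length, only by the filter on low counts or, with no filter, by having no reads. Counts of any pair within a group differed beyond sampling noise (chi-square over degrees of freedom of at least 11.9), so every library was kept.

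Each pair of groups was fitted on its own with edgeR 4.0.16 in R 4.3.3, on the whole table: filterByExpr by group, TMM scaling, robust quasi-likelihood test, two-sided, Benjamini-Hochberg adjustment over all genes tested, and a call at 0.05. CPM is exon reads over the TMM-scaled library size in units of 1000000 reads, and CPM per kb divides by the deposited exon length. The SE is the size of the log2 fold change over the square root of F. Alternatives were DESeq2 1.42.0 and its size factors, limma-voom (limma 3.58.1), no filter, unique exon reads, total gene reads, all 4 groups in 1 fit, a replicate block, and each library left out. The fit was tested on simulated counts. Summaries and plots used Python 3.11.15, pandas 2.3.3, numpy 2.4.6, scipy 1.17.1 and matplotlib 3.10.9, and Krt8 was aligned with blastn 2.17.0.

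The 10 genes and the lists were chosen with earlier results of these data known. All 10 genes are given. Of each list, the 2 called genes with the largest increase and the 2 with the largest decrease could be named, and 1 such gene is not reported here; Ctnnb1 and Muc2 were named after their values were seen. The genes most like the set are the 5 of highest Pearson r with the mean of its z-scored log2 CPM (prior count 2), each diet's mean taken off, at a mean log2 CPM of at least 2. Counts limit the precision, and reads without molecular identifiers are not independent molecules.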

Additional observations from a re-analysis of the deposited data

Results flagged for a closer look

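In 9 cases 1 library stood apart from the rest of its group, its gap to the nearest other library being more than 0.568 of the range of the 7 libraries. In all, 37 sets of a gene and a group could be looked at. The limit would flag about 1 in 20 sets of normally spread values. Many sets of the CD44 pair are mostly 0 or single reads, so that rate does not hold for them. Where 1 library alone has reads, a flag is certain. All 9 were in the CD44 pair and 0 were in the CD4+ pair. In CD44+ libraries they were Krt8 at 9.10 CPM in replicate 2, Krt20 at 6.59 CPM in replicate 4, Vil1 at 1.40 CPM in replicate 7, Muc13 at 0.297 CPM in replicate 2 and Krt19 at 0.119 CPM in replicate 5. The last is 1 read and the Muc13 value is 3 reads, so these are at the limit of counting. In CD44- libraries they were Krt8 at 20.8 CPM in replicate 4, Cdh1 at 12 CPM and Krt18 at 10.6 CPM in replicate 1, and Muc3 at 4.81 CPM in replicate 6. The cause was not tested.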

How the results depend on the processing

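For the diet, 2081 genes and 5 of the 10 epithelial genes were called. DESeq2 called 2806 genes and 9 of the 10. With all 4 groups in 1 fit 2 genes and 0 of the 10 were called, and the cause was not tested. With 1 library left out, between 1299 and 3865 genes and between 4 and 9 of the 10 were called. The gene count was lowest without conventional replicate 4 (1299) or elemental replicate 4 (1316) and highest without conventional replicate 6 (3865). With 1 library left out, between 4 and 6 of the 10 had groups that did not overlap, the 6 being without conventional replicate 6. Groups separate more easily with fewer libraries, and the share over all genes was taken only with every library. All 200 fold changes of the 10 genes under the alternatives were above 0.

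For CD44, 64 genes were called, 401 with DESeq2, 101 with total gene reads, 1748 with all 4 groups in 1 fit and 37 with a replicate block. Leaving out 1 library gave between 36 and 87. It gave 36 without CD44+ replicate 5 or 7, 37 without CD44+ replicate 6 and 41 without CD44- replicate 4. Of the 10 genes 0 were called in each of these fits except that of all 4 groups, which called 6, after the genes had passed the filter through the CD4+ libraries.

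The labels do not say whether same-numbered libraries belong together. The CD44+ and CD44- libraries carry the same replicate numbers, with the same number missing from both. Same-numbered libraries correlated between -0.142 and 0.271 for the diet and between -0.0423 and 0.115 for CD44. For the diet 1 of 6 and for CD44 1 of 7 correlated best with its own number. Such low values do not exclude a pairing, and the main fits left it out. With the replicate block 2033 genes and 5 of the 10 were called for the diet, and the block changed no call among the 10.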

Other observations

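Markers of secretory epithelial cells were also read in the CD4+ libraries. Of 7 Paneth cell markers, genes of antimicrobial granules at the crypt base, 6 passed as higher on the elemental diet and 0 as lower, with a median log2 fold change of 3.85 (edgeR). Itln1 averaged 70.0 ± 66.0 CPM on the elemental diet and 3.19 ± 1.62 CPM on the conventional diet (log2 fold change 4.48 ± 0.96, adjusted p = 0.0112). The Paneth markers summed to between 23.4 and 952 CPM on the elemental diet and between 9.81 and 38.7 CPM on the conventional diet, so the groups overlapped and the elemental libraries were widely spread. Of 7 goblet cell markers tested 0 passed, with sums between 86.3 and 708 CPM on the elemental diet and between 11.3 and 411 CPM on the conventional diet. Of the 4 intestinal stem cell markers tested, Ascl2, which follicular helper T cells also use, passed as lower, with 4.21 ± 1.96 CPM on the elemental diet and 9.60 ± 2.03 CPM on the conventional diet (log2 fold change -1.19 ± 0.27, adjusted p = 0.00832).

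Markers of M cells and the epithelium over the follicle, which samples antigen above each Peyer's patch, did not share 1 direction. Which cells in these sorts gave the reads of these markers was not tested. Of 8 markers 6 were tested, and 1 passed as higher and 1 as lower on the elemental diet. Tnfaip2 averaged 5.57 ± 2.81 CPM on the elemental diet and 2.50 ± 0.634 CPM on the conventional diet (log2 fold change 1.16 ± 0.33, adjusted p = 0.0248, edgeR). Marcksl1 ran between 28.8 and 41.2 CPM on the elemental diet and between 53.7 and 70.7 CPM on the conventional diet (log2 fold change -0.80 ± 0.10, adjusted p = 1.60e-04). Gp2, the defining receptor of M cells, reached at most 0.983 CPM on the elemental diet and 0.669 CPM on the conventional diet.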
